A study of Mus musculus with 6 samples.

Results

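The genes studied here build and hold the basement membrane contact of the basal mammary cell. They are the laminin chains Lama1, Lama3 and Lamb3, collagen XVII (Col17a1), collagen VII (Col7a1) and integrin alpha 3 (Itga3). They were chosen by gene name, and all 6 were found among the 651 genes of the deposited tables, in the list of 566 genes, or 86.9% of the total, that were lower in ERα-/-.GFP+ mammary epithelial cells (MECs). The tables hold only genes past the authors' thresholds on fold change and FDR, so being listed is part of how every value given here came to be seen.

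WT.GFP+ and ERα-/-.GFP+ MECs were injected into the milk ducts of contralateral mammary glands of NSG females, an immunodeficient strain, and were recovered by FACS sorting for GFP when the hosts were pregnant. The control cells carry intact ERα, and the mutant cells come from mice with a germ-line deletion of the receptor; both genotypes carry a GFP transgene driven by a β-actin promoter, which is active in most cell types and not in the epithelium alone. The donor lines were kept on a C57Bl6 background, glands were pooled to prepare cell suspensions, and the ages of donors and hosts are not given for these samples. RNA of 3 WT.GFP+ and 3 ERα-/-.GFP+ samples was reverse transcribed from oligo dT primers, amplified and sequenced as single-end reads, and the study asks which genes depend on ERα inside the MECs. The levels in the tables are 1 mean per genotype, so no value of a single sample and no replicate error can be given, and no test across samples could be computed from them. The results of the authors' own test across the samples, also in the tables, were not used here. The intervals cover counting error only and leave out the spread between samples. They were computed as exact binomial (Clopper-Pearson) 95% intervals on the reads summed over the 3 samples of a genotype. Depth was 27190483 reads per WT.GFP+ sample and 29326709 per ERα-/-.GFP+ sample, estimated from the deposited mean counts and levels. The groups appear in the column headers as numbered selections without a genotype, which was assigned from the direction that the paper states, so the direction itself is not an independent result. Esr1 was not among the listed genes and could not check it.

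Basal cells of the mammary gland sit on a basement membrane, a sheet of laminins, type IV collagens and linker proteins. Laminins are trimers of an alpha, a beta and a gamma chain. Lama3 and Lamb3 encode chains of the anchoring laminin of stratified and glandular epithelia. This laminin is bound from the cell side by hemidesmosomes, junctions in which integrin alpha 6 beta 4 and collagen XVII link it through plectin and dystonin (Dst) to the keratin filaments. From the stromal side it is held by anchoring fibrils of collagen VII. Integrin alpha 3, paired with beta 1, is a second receptor for the same laminin, and Lama1 encodes a chain of another laminin, which is not part of hemidesmosomes.

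The stretch of genome just before a RefSeq start of 4 of these genes is shown because the genes were lower together and the lost protein is a transcription factor. The start used for Lamb3 lies inside the gene as GENCODE places it, so its window is not upstream of the whole gene. The sequences are those of RefSeq for GRCm38.p6, read 5′ to 3′ on the strand of the gene and cut where a GENCODE exon begins. Lama1 and Lama3 had no entry. Capitals mark a match to GGTCA, the half-site of the oestrogen response element, to CAGGTG, an E-box bound by Snail proteins, or to TATAAA, each searched on both strands.
Lamb3, chr1:193301744-193301992, plus strand: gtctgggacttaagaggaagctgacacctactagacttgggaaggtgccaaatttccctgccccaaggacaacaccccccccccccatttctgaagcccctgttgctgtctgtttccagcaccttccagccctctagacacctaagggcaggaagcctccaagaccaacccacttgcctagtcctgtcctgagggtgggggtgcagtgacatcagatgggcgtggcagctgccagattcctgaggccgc
Col17a1, chr19:47692095-47692292, minus strand: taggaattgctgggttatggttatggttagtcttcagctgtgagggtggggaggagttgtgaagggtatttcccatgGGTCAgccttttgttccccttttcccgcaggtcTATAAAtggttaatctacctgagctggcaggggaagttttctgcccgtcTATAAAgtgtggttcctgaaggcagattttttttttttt
Col7a1, chr9:108953336-108953585, plus strand: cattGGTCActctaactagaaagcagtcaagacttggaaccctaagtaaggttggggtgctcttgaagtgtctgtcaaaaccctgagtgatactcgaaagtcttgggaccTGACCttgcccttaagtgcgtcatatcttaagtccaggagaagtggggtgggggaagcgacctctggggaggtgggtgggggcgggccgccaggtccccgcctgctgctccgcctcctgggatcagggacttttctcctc
Itga3, chr11:95076802-95076964, minus strand: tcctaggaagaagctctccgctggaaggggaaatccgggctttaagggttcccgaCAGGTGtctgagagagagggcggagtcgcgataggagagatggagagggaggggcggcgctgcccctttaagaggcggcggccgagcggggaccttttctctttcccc

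None of these 4 windows held the full oestrogen response element GGTCANNNTGACC, which was present in 0.064% of the 32817 promoter windows of 250 bases in the reference and in 0 of the 529 windows of listed lower genes. The half-site alone was found in the windows of Col17a1 and Col7a1, and it is common, being present in 35.2% of all windows and 32.9% of those of lower genes. The E-box before Itga3 occurs in 17.2% of all windows. The window of Lamb3 held none of the motifs, nor did any of the 4 hold the AP-1 motif TGANTCA, which is present in 6.75% of all windows. TATAAA, found at 2 places before Col17a1, is present in 12.4% of all windows and in 6.05% of those of lower genes. Second starts of Lamb3 and Itga3 in the reference were searched as well; the E-box motif lay before that of Lamb3, and 1 half-site before that of Itga3. A match to these letters is a description of the sequence and does not show that a factor binds there.

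Lama3, the alpha chain of the anchoring laminin, lies on chromosome 18 of GRCm38 from 12333819 to 12583013 and has 75 exons in its longest transcript. The authors' mean count was 2699 for WT.GFP+ against 705 for ERα-/-.GFP+ MECs, or 99.3 and 24.0 CPM, which are counts scaled to the size of the library. Scaled for depth, Lama3 was 4.13-fold lower in ERα-/-.GFP+ MECs (counting interval 3.94 to 4.33). The gene makes a long and a short alpha 3 chain from separate starts, and a count per gene does not tell them apart. An exon of Lama3 is overlapped on the other strand by the antisense gene Gm29200 in GENCODE, which was listed as lower too, on authors' mean counts of only 24.3 and 2.67.

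Lamb3, the beta chain of the same trimer, lies on chromosome 1 from 193207699 to 193343878. Its authors' mean count was 5900 for WT.GFP+ against 2967 for ERα-/-.GFP+ MECs, or 217 and 101 CPM. It was 2.14-fold lower in ERα-/-.GFP+ MECs (counting interval 2.09 to 2.20), the smallest difference among the 6 genes, and it had the highest mean count of them in both genotypes. An exon of Lamb3 is overlapped on the other strand by the gene Hsd11b1 and on the same strand by 4930570N18Rik in GENCODE. The use of strand in the counting is not given in the sources used here, so reads of the partner genes cannot be told from those of Lamb3, and the same holds for Gm29200 and Lama3.

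Lama3 and Lamb3 encode chains of 1 trimer and were lower by amounts that differed beyond counting error. On the log2 scale the change of Lamb3 was smaller than that of Lama3 by 0.94 (95% counting interval 0.87 to 1.02, normal approximation on the 4 summed counts). This interval holds no variation between samples, so the difference between the chains has no replicate check. On the mean log2 levels in place of the mean counts, the changes were −1.99 for Lama3 and −1.06 for Lamb3.

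Levels of different genes were compared in CPM per kilobase of exon. In WT.GFP+ MECs Lamb3 stood at 32.8 and Lama3 at 9.24. In ERα-/-.GFP+ MECs these levels were 15.3 and 2.24. Lamb3 was thus at 3.55 times the level of Lama3 in WT.GFP+ and at 6.84 times in ERα-/-.GFP+ MECs. With the longest transcript in place of all exons as the length, the Lamb3 to Lama3 ratios were 4.74 and 9.12, and with either length the ratio was higher in ERα-/-.GFP+ MECs.

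**Figure D1:**
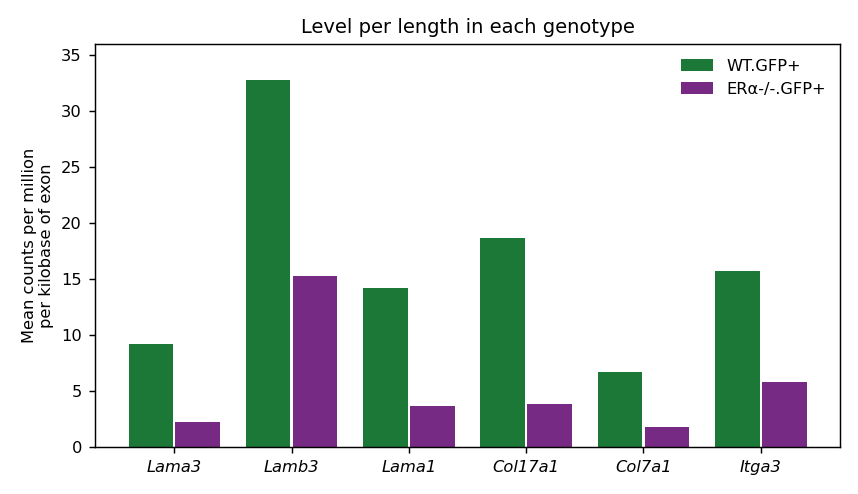
Mean level of the 6 genes in CPM per kilobase of exon on a linear axis, with 1 bar for the mean of each genotype and no error bar because no value per sample was used. Lamb3 stands highest in both genotypes, at 32.8 and 15.3, and Col7a1 lowest, at 6.72 and 1.78.

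Lama1, on chromosome 17 from 67697259 to 67822647, encodes the alpha chain of the classical basement membrane laminin. The authors' mean count was 3737 for WT.GFP+ against 1040 for ERα-/-.GFP+ MECs, or 137 and 35.5 CPM. This made it 3.88-fold lower in ERα-/-.GFP+ MECs (counting interval 3.73 to 4.03). Of the other alpha chains, Lama2, Lama4 and Lama5 were in neither table, nor were Lamb1 and Lamc1, the usual partners of Lama1. Of a list of 10 laminin chains 3 were lower, all among the 6 genes, as were 86.9% of all listed genes. Of the other chains 0 were higher and 7 were in neither table. A gene that is not listed may have changed by less, may have missed the FDR threshold or may have been removed by the authors' filter on expression.

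Col17a1, the transmembrane collagen of the hemidesmosome, differed most. It lies on chromosome 19 from 47646344 to 47692094 with 54 exons in its longest transcript. Its authors' mean count was 3049 for WT.GFP+ against 681 for ERα-/-.GFP+ MECs, or 112 and 23.2 CPM. Col17a1 was 4.83-fold lower in ERα-/-.GFP+ MECs (counting interval 4.60 to 5.07), which left 20.7% of the WT.GFP+ level. Among all 566 listed lower genes, 86.0% differed by less. Among the 326 of them whose mean count reached 100 in both genotypes, 323 did, but that filter also removes the most strongly reduced genes.

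Of the 6 genes of a hemidesmosome core list, Col17a1 and Dst were lower, as were 86.9% of all listed genes. The others, Itga6, Itgb4, Plec and Cd151, were in neither table. Dst encodes dystonin, whose epithelial form is a plaque protein that ties keratins to the junction. Its authors' mean count was 1256 for WT.GFP+ against 490 for ERα-/-.GFP+ MECs, a 2.76-fold lower level in ERα-/-.GFP+ MECs (counting interval 2.60 to 2.94). Dst also makes neuronal and muscle forms, which a count per gene does not separate.

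Col7a1, the collagen of the anchoring fibrils, lies on chromosome 9 from 108953586 to 108984875 and is cut into 119 exons in its longest transcript, and the microRNA gene Mir711 overlaps its exons on the same strand. It had the lowest counts of the 6 genes, with an authors' mean count of 1879 for WT.GFP+ against 537 for ERα-/-.GFP+ MECs. At 69.1 and 18.3 CPM it was 3.77-fold lower in ERα-/-.GFP+ MECs (counting interval 3.57 to 3.99). Per length it was also the lowest, at 6.72 for WT.GFP+ against 1.78 for ERα-/-.GFP+ MECs. None of 15 genes for the processing or shedding of these collagens and laminins, among them Bmp1, Adam9, Adam10, Adam17 and Serpinh1, was in either table.

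Itga3, on chromosome 11 from 95044474 to 95076801, encodes the integrin chain that receives the anchoring laminin outside the hemidesmosome. The authors' mean count was 2441 for WT.GFP+ against 978 for ERα-/-.GFP+ MECs, or 89.8 and 33.3 CPM. It was 2.69-fold lower in ERα-/-.GFP+ MECs (counting interval 2.58 to 2.81). Itga3 was the only listed gene among 26 integrin chains, so its partner Itgb1 and the hemidesmosome pair Itga6 and Itgb4 were in neither table. Of 8 laminin receptor genes, Bcam, a surface glycoprotein that binds laminin alpha 5, was the other one listed. Bcam was 2.61-fold lower in ERα-/-.GFP+ MECs, with authors' mean counts of 1322 and 547. The listed receptors, Itga3 and Bcam, were thus lower, as were 86.9% of all listed genes.

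**Figure D2:**
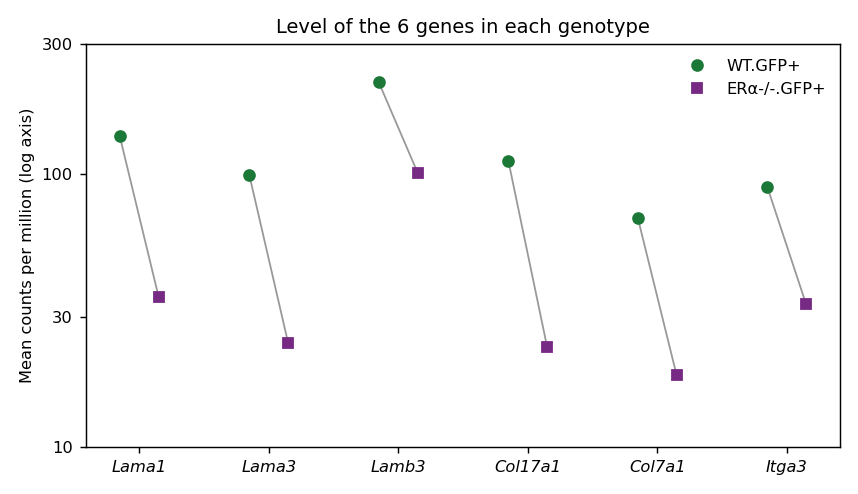
Mean CPM (counts scaled to the size of the library) of the 6 genes on a log axis, with circles for WT.GFP+ and squares for ERα-/-.GFP+ MECs, each the mean of 3 samples. The lines drop most steeply for Col17a1, from 112 to 23.2, and least for Lamb3, from 217 to 101.

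The 6 genes together took up 0.0725% of reads for WT.GFP+ against 0.0236% for ERα-/-.GFP+ MECs. Their median log2 change was −1.94, against −1.70 over the 566 listed lower genes. The median was −1.62 over all 651 listed genes, which include the higher ones. Over the 326 lower genes whose mean count reached 100 in both genotypes it was −1.52. All 6 were lower by more than 2-fold, as were 86.2% of the listed genes, and as the authors' threshold requires. More than 3-fold lower were 4 of the 6, Lama1, Lama3, Col17a1 and Col7a1, against 52.2% of the listed genes. More than 4-fold lower were 2, Lama3 and Col17a1, against 20.6%. The place of Lama3 past 4-fold does not hold against counting error (interval 3.94 to 4.33), and it was 3.98-fold lower on the mean log2 levels and 3.83-fold lower without depth scaling. These shares describe a set of 6 chosen with earlier results known, and nothing particular to the set is read from them. Among the 326 well-counted lower genes, 310 differed by less than Lama3, 298 by less than Lama1, 289 by less than Col7a1, 132 by less than Itga3 and 11 by less than Lamb3. The count filter removes the most strongly reduced genes, which raises these places. Over all 566 listed lower genes, 78.1% differed by less than Lama3, 73.0% by less than Lama1 and 69.6% by less than Col7a1. For Itga3 and Lamb3 these shares were 27.2% and 3.2%.

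Other genes of the basement membrane were lower too. Of a list of 21, 5 were listed, each as lower, as were 86.9% of all listed genes, and 16 were in neither table. Col4a5 and Col4a6, paired type IV collagen chains, had authors' mean counts of 2585 and 999 in WT.GFP+ MECs and of 756 and 269 in ERα-/-.GFP+ MECs. The counting intervals of their folds were 3.52 to 3.86 and 3.70 to 4.33 lower. Frem2, a basement membrane protein of the Fraser complex, was 5.46-fold lower (counting interval 4.78 to 6.27), with authors' mean counts of 434 and 85.7. Agrn, a heparan sulphate proteoglycan, was 2.57-fold lower. Smoc1 was 3.04-fold lower on authors' mean counts of only 84.7 and 30, with a counting interval of 2.38 to 3.92.

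Adaptor proteins that couple integrins to actin were represented by 5 of 21 genes, all lower, as were 86.9% of all listed genes. The other 16 were in neither table. These were Fermt2, a kindlin that activates integrins, at 2.59-fold lower, the tensins Tns1, Tns3 and Tns4 at 2.91-fold, 2.97-fold and 3.60-fold lower, and the docking protein Bcar1 at 2.44-fold lower in ERα-/-.GFP+ MECs. The median log2 change of these adaptors was −1.54.

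Markers of the basal cell and of leukocytes were in the tables as well. Of 19 basal and myoepithelial markers 16 were listed, all as lower, as were 86.9% of all listed genes. Their log2 changes ran from −2.63 for Lgr5 to −1.60 for Krt15, with a median of −1.88. The other 3, Vim, Sparc and Igfbp3, were in neither table. The listed basal markers took up 0.772% of reads for WT.GFP+ against 0.205% for ERα-/-.GFP+ MECs. Of 28 leukocyte markers 13 were listed, all as higher, as were 85 of all 651 listed genes. The log2 changes of these 13 ran from 1.03 to 1.30. They took up 0.413% of reads for WT.GFP+ against 0.903% for ERα-/-.GFP+ MECs. None of 15 luminal, 12 milk, 7 endothelial, 6 fibroblast and 5 adipocyte genes was in either table, so the level of those cell types in the samples was not analysed here. In RNA of sorted cells, fewer basal cells and less RNA of a gene per basal cell cannot be told apart, and the part of cell makeup in these differences was not tested.

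Set against the 16 listed basal markers, the 6 genes stood apart from each other. These markers all passed the authors' thresholds, and Vim, Sparc and Igfbp3, which were not listed, may have differed by less. Col17a1, Lama3, Lama1 and Col7a1 lay within the range of the markers, with 15, 14, 11 and 9 of the 16 markers lower by less. For Col17a1 the only marker lower by more was Lgr5, on authors' mean counts of only 237 and 41.3. Relative to the marker median, Col17a1 was further down by a log2 difference of −0.39 and Col7a1 by −0.03. Lamb3 and Itga3 lay outside the range, as all 16 listed markers were lower by more. Relative to the marker median they were higher by 0.78 and 0.45 on the log2 scale. Dst (0.42), Bcam (0.50), Agrn (0.52), Fermt2 (0.51), Tns1 (0.34), Tns3 (0.31) and Bcar1 (0.59) also stood above all 16 markers. Col4a5 (0.001), Col4a6 (−0.12), Frem2 (−0.57), Smoc1 (0.28) and Tns4 (0.04) did not.

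**Figure D3:**
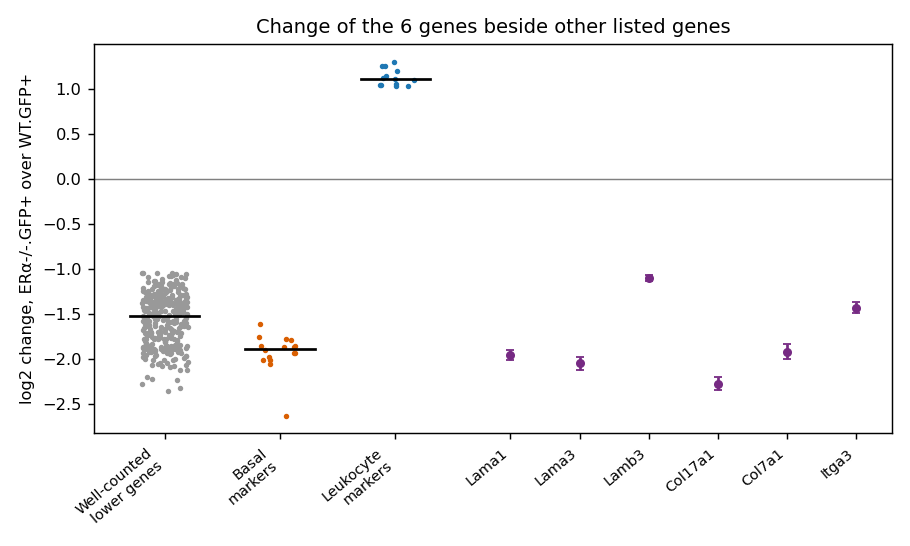
log2 change of ERα-/-.GFP+ over WT.GFP+ MECs, with 1 dot per gene and a line at the median for the 326 well-counted lower genes, the 16 listed basal markers and the 13 listed leukocyte markers, and points with 95% counting intervals for the 6 genes. Lamb3 and Itga3 sit above every listed basal marker. The other 4 genes lie within the range of the markers, with Col17a1 below all of them but Lgr5.

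The nearest listed gene to each of the 6, by distance over the 2 genotype means of the log2 level, shows what else had such a pattern. It was Col4a5 for Lama3, at a distance of 0.022, and Trp63, which encodes the basal transcription factor P63, for Col7a1 at 0.046. Itga3 was nearest to Sphk1 (0.024), Lama1 to Lhfp (0.17), Col17a1 to the intermediate filament gene Synm (0.20) and Lamb3 to Cd9-ps (0.22). Cd9-ps is a pseudogene, and its counts may hold reads of Cd9. With 2 means per gene, likeness says only that level and change were close.

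The tables hold 1 trace of the spread between samples. Each genotype has a mean of the counts and a mean of the log2 levels, and the log2 of the first exceeds the second when samples differ. Over 403 listed genes whose mean count reached 100 in both genotypes, this gap had a median of 0.001 for WT.GFP+ against 0.017 for ERα-/-.GFP+ MECs, and its lowest values were −0.026 and −0.071, the end where samples are most alike. Depth was estimated from the same pair of means, which fixes the middle of the gap in each genotype. The median and the sign of a gap therefore do not measure spread, and only the order of genes within a genotype is read here. In WT.GFP+ MECs the gap was 0.154 for Lama1, above 98.8% of these genes, 0.149 for Col7a1, above 98.3%, and 0.103 for Lama3, above 96.3%. By this measure the WT.GFP+ samples differed more in these 3 genes than in most of the 403. The gap was −0.011 for Lamb3 and −0.007 for Itga3, below the median. In ERα-/-.GFP+ MECs the gap of Lama1 was 0.094, above 88.6% of these genes, and that of Col17a1 0.070, above 80.4%. That of Lama3 was 0.049, above 69.5%, that of Col7a1 −0.006, above 36.5%, and that of Lamb3 −0.052, above 10.9%. The high place of Col7a1 was thus seen in WT.GFP+ MECs only. Which sample differed is not shown by the gap, and unequal depths within a genotype also enter it.

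**Figure D4:**
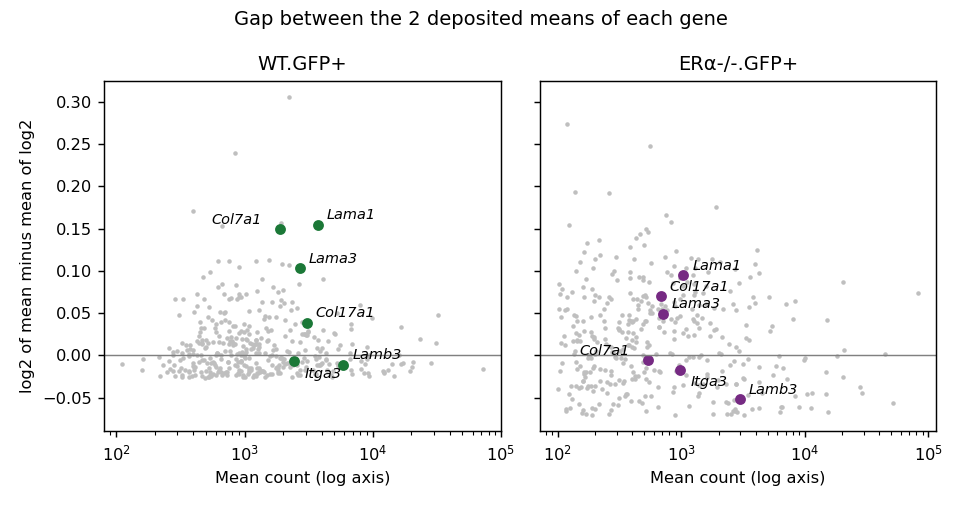
Gap between the log2 of the mean level in CPM and the mean log2 level (y axis) against the mean count on a log axis, for 403 listed genes in grey and the 6 genes in colour, in each genotype. Lama1, Col7a1 and Lama3 stand high in WT.GFP+ MECs, at 0.154, 0.149 and 0.103, and Lamb3 and Itga3 lie low in both genotypes.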

How the data were processed

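RNA-seq of 3 WT.GFP+ and 3 ERα-/-.GFP+ samples was analysed from the authors' 2 tables of differentially expressed genes. The authors aligned reads to mm10 with HTSstation, filtered genes by expression and tested them with edgeR in ASAP. The counter, annotation and use of strand are not given in the sources used here. The deposited count is the authors' mean of raw counts per genotype (3 times each value was whole within 0.0001), and the deposited level is the authors' mean log2 CPM. The fold changes, p-values and FDRs of the authors' comparison, also in the tables, were not used.

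Depth was the median of mean count over mean CPM over genes whose mean count reached 1000 (220 genes for WT.GFP+, 140 for ERα-/-.GFP+). Folds are ratios of depth-scaled mean counts. In 33 listed genes, none of the 6, a mean of at most 1 was set to 3 reads. No test was run, because the tables give no value per sample. The calculation was checked on simulated counts. Lengths and positions came from GENCODE M21 (GRCm38, the assembly of mm10; 650 of 651 genes matched), and sequences from RefSeq. Named genes were the 6 genes, listed genes of the fixed lists and each nearest gene; Dst belongs to the lists, and 1 listed gene is not reported here. The members and lists were chosen with earlier results of these data known. Scripts ran in Python 3.11.15 with scipy 1.17.1, pandas 2.3.3, matplotlib 3.10.9 and numpy 2.4.6.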

Additional observations from a re-analysis of the deposited data

How the results depend on the processing

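All 6 genes stayed lower in ERα-/-.GFP+ MECs under each scaling tried. From the mean log2 levels in place of the mean counts, the log2 changes were −1.89 for Lama1, −1.06 for Lamb3 and −1.76 for Col7a1, with a median of −1.83. Without depth scaling they were −1.85 for Lama1, −1.94 for Lama3, −0.99 for Lamb3, −2.16 for Col17a1, −1.81 for Col7a1 and −1.32 for Itga3, with a median of −1.83, so that Lamb3 was 1.99-fold lower. At a threshold of 4-fold, 2 of the 6 genes counted as lower, and Lama3 was no longer past it from the mean log2 levels (3.98-fold lower) or without depth scaling (3.83-fold lower). Past 3-fold, listed genes numbered 1 for the hemidesmosome core, 1 for the adaptors and 0 each for laminin receptors, integrin chains and leukocyte markers, as fewer genes pass a higher threshold. With the longest transcript as length, the level of Lamb3 over Lama3 was 4.74 for WT.GFP+ against 9.12 for ERα-/-.GFP+ MECs. The other 33 of 52 alternatives moved values by less than counting error, or counts by at most 1.5 times. No paired analysis was possible because the tables hold genotype means only; fits without each replicate were not run for the same reason.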
